A study of Homo sapiens with 8 samples.

Results

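The 9 genes described here belong to the NRF2 pathway, the main transcriptional response of animal cells to oxidants and electrophiles, and to the cystine supply that feeds it. They were taken by name, with no threshold on their values but with earlier results of these data known, and make up 9 of the 20296 genes that could be named on the array. NFE2L2 encodes NRF2 itself and KEAP1 the adaptor that marks NRF2 for degradation. SLC7A11, GCLC, GCLM, TXNRD1, SRXN1, HMOX1 and NQO1 are among its best known targets. In resting cells NRF2 protein is made and destroyed continuously, so the pathway is switched mostly through the stability of that protein and its output is read in the mRNA of the targets. SLC7A11 also has a known link to p53, which can repress it and so limit the import of cystine.

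RNA was measured in MCF10A cells, a non-tumorigenic human mammary epithelial line, with intact p53 (p53+/+) and without it (p53-/-). Neither the labels nor the methods say how the p53-/- line was made or whether it is 1 clone. Cells were left untreated and harvested at 0 h, or were exposed for 2 h to the DNA-damaging drug doxorubicin (adriamycin, ADR) and harvested at 12, 24 and 48 h. The labels give 0.5 µg/ml of doxorubicin, and the study's methods give a higher concentration. Each genotype and time had 1 array, 8 arrays in all on a single slide, and the 2 genotypes held different columns of that slide, so genotype and position cannot be told apart.

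Levels are log2 processed signals relative to the 75th percentile of the same array, so that a difference of 1 is a 2-fold difference. With 1 array per condition no value at a single time has a replicate error. The technical SD given below comes from 999 probes printed in 10 spots and covers the spread between spots of an array only. Precision is limited by having so few arrays. The 75th percentile was 661 to 818 on treated p53+/+ and 1119 to 1199 on treated p53-/- arrays. Scaling therefore moved the 2 genotypes relative to each other: the median log2 difference of treated p53+/+ minus treated p53-/- over 15811 genes was 0.05 with it and -0.55 without it.

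The labels were looked at through 8 genes known as targets of p53 (among them CDKN1A, MDM2, SESN1 and ZMAT3). Their median level was 2.36, 2.66 and 2.03 on the 3 treated p53+/+ arrays and between -2.01 and -1.30 on the 4 p53-/- arrays. On the array labelled p53+/+ 0 h it was -1.64, within that range. By these genes the treated p53+/+ arrays stood apart from all p53-/- arrays, and the array labelled p53+/+ 0 h did not. CDKN1A alone, which encodes the cell cycle inhibitor p21, read -1.14 on that array and -2.97 on the p53-/- 0 h array. On the treated p53-/- arrays it read -0.96, -0.64 and -0.48, so -1.14 too lay within the range of the p53-/- arrays. Changes in p53+/+ cells are therefore given also against the p53-/- 0 h array, and treated arrays are compared directly at the same time, which needs no 0 h array. Of 8 epithelial markers, 7 were well above background on all 8 arrays, with TP63 on 3 of them. Of 8 markers of other cell types, CD3E was above background on 1 array, PECAM1 and COL1A1 on 5 each, and PTPRC, CD68, ACTA2 and DES on all 8. Their highest levels were 3.29 for ACTA2, 0.85 for CD68 and -3.68 for PTPRC. Any part of these genes in the results was not tested. In such bulk RNA, fewer cells expressing a gene and less of its RNA per cell cannot be told apart.

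Each of the 9 genes had 1 named probe. The probe for NFE2L2 (NM_006164, 2 spots) was not well above background on any of the 8 arrays, so no level or change of NRF2 mRNA can be given here. The other 8 genes were well above background on all 8 arrays. The levels by array are plotted gene by gene.

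**Figure D1:**
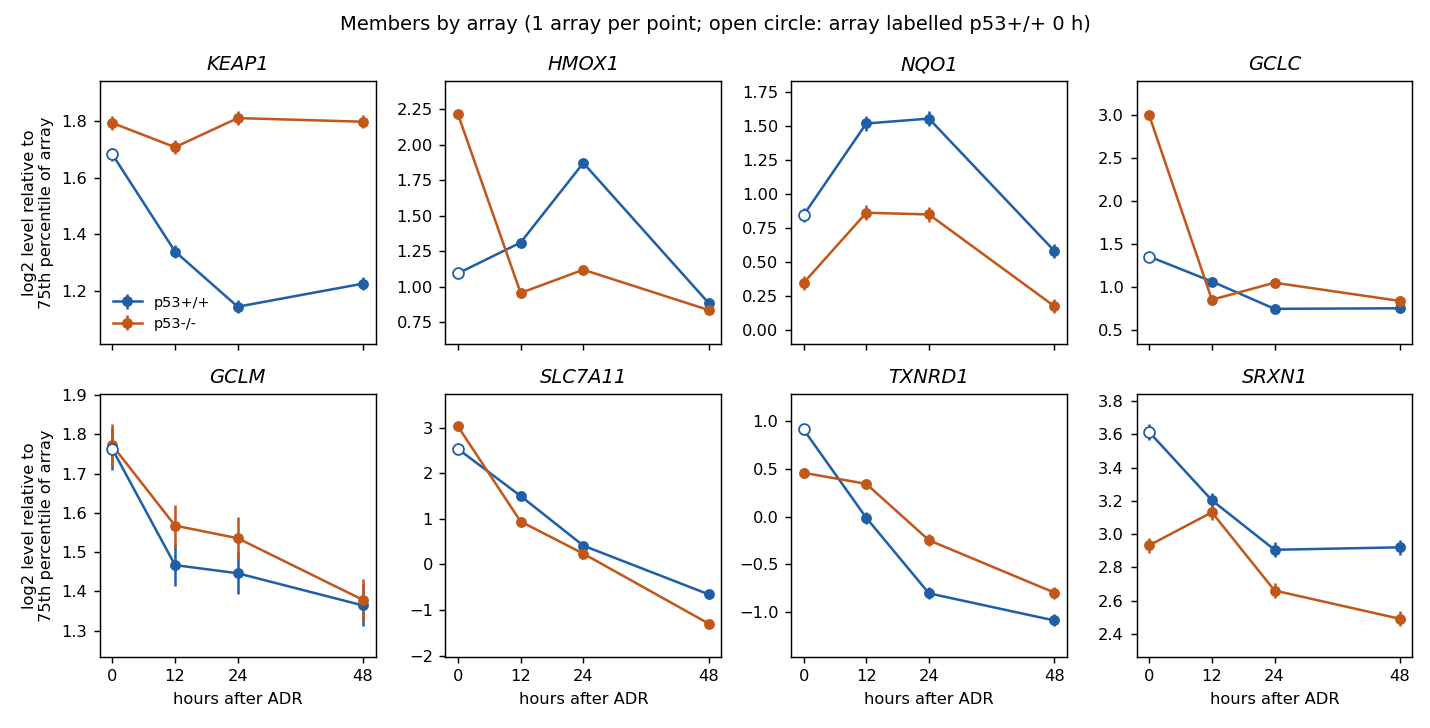
Levels of the 8 detected genes on each array, as log2 signal relative to the 75th percentile of that array (vertical axis, a separate range for each gene) against hours after ADR; blue is p53+/+, orange is p53-/-, each point is 1 array and bars are the technical SD. SLC7A11, GCLM and TXNRD1 were lower at each later time in both genotypes (without scaling GCLM and TXNRD1 were not, in p53-/- cells), HMOX1 and GCLC were highest on the p53-/- 0 h array, and KEAP1 lay lower on all 3 treated p53+/+ arrays. The open circle is the array labelled p53+/+ 0 h.

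SLC7A11, the xCT subunit of the antiporter that brings in cystine in exchange for glutamate, showed the largest change of the 8 genes. Its level (NM_014331, 2 spots) went from 2.53 on the array labelled p53+/+ 0 h to 1.50 at 12 h, 0.41 at 24 h and -0.66 at 48 h in p53+/+ cells. In p53-/- cells it went from 3.03 at 0 h to 0.94, 0.24 and -1.30. All 6 treated arrays lay below both 0 h arrays, and in each genotype the level was lower at each later time.

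In p53-/- cells SLC7A11 fell 4.24-fold at 12 h, 6.91-fold at 24 h and 20.0-fold at 48 h. From the array labelled p53+/+ 0 h it fell 2.05-, 4.35- and 9.12-fold, and from the p53-/- 0 h array the p53+/+ values were 2.88-, 6.12- and 12.8-fold lower. The technical SD of such a log2 change was 0.07 to 0.08. The p53+/+ change at 12 h lies at the 2-fold limit, and it was -0.98 after quantile normalization and -0.95 with normexp, just short of it. Of the 8 genes, SLC7A11 alone was at least 2-fold lower at all 3 times in both genotypes, which 0.468% of all 15811 genes were. It was also the only one at least 2-fold lower at all 3 times in p53+/+ cells, where the background was 6.39% of genes, and it was joined by GCLC when the p53-/- 0 h array was the baseline (6.79% of genes). A limma contrast of the treated arrays against 0 h, added after the values were seen, gave SLC7A11 a log2 effect of -3.07 in p53-/- cells (SE 1.02, Benjamini-Hochberg adjusted p = 0.406) and -2.11 in p53+/+ cells (SE 1.02, adjusted p = 0.280), neither past 0.05. In that fit the 3 treated times stand in for replicates, so the steady decline with time counts as error.

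GCLC and GCLM are the catalytic and modifier subunits of glutamate-cysteine ligase, which makes the first product on the way to glutathione from the cysteine that SLC7A11 supplies. Their RNAs behaved differently. GCLC (NM_001498, 2 spots) read 3.00 on the p53-/- 0 h array and 0.86, 1.05 and 0.84 at 12, 24 and 48 h. It went from 1.36 on the array labelled p53+/+ 0 h to 1.07, 0.75 and 0.76 in p53+/+ cells. The p53-/- 0 h array thus stood above the other 7, the next highest being that 1.36. GCLC was 4.41-, 3.85- and 4.46-fold lower after ADR in p53-/- cells, and 3.81-, 4.75- and 4.73-fold lower in treated p53+/+ cells when the same p53-/- 0 h array was the baseline. From the array labelled p53+/+ 0 h, the changes of 1.22-, 1.52- and 1.52-fold stayed under 2-fold. Without scaling the log2 change from that array was -1.22 at 48 h, past 2-fold, as was -1.12 at 24 h with spike-in scaling.

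The size of the GCLC change in p53+/+ cells therefore turned on the scaling. In either genotype it also turned on which 0 h array it was measured from. Those 2 arrays differed 3.12-fold in GCLC and 2.17-fold in HMOX1, the only members that differed at least 2-fold between them, both lower on the array labelled p53+/+ 0 h (5.38% of genes were lower and 4.25% higher by as much). The interaction of genotype and ADR in limma over 8 arrays was 1.58 for GCLC (SE 0.37, adjusted p = 0.0981). Neither it nor the interaction of any other member passed 0.05 (2 did unadjusted, GCLC and HMOX1), against 0.94% of probes higher and 0.746% lower that did. After normexp the GCLC interaction was 1.66 (adjusted p = 0.0362).

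GCLM (NM_002061, 2 spots) covered a narrow range. From 1.76 on the array labelled p53+/+ 0 h it went to 1.47, 1.45 and 1.36, and from 1.77 on the p53-/- 0 h array to 1.57, 1.54 and 1.38. The 0 h arrays differed by 0.01 on the log2 scale, and all 6 treated arrays lay below both. At 48 h GCLM was 1.32-fold lower in p53+/+ and 1.31-fold lower in p53-/- cells, past the technical SD of 0.08 on the log2 scale but under 2-fold. Without scaling GCLM changed at 48 h by -1.02 on the log2 scale in p53+/+ cells, past 2-fold, and by 0.05 in p53-/- cells. Its direction in p53-/- cells depended on the scaling, since the mean log2 change of -0.28 became 0.11 without scaling and 0.07 with spike-in scaling.

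TXNRD1 encodes thioredoxin reductase, which uses NADPH to keep thioredoxin reduced. Its level (NM_001261445, 2 spots) went from 0.91 on the array labelled p53+/+ 0 h to -0.01, -0.80 and -1.09 in p53+/+ cells, and from 0.46 to 0.34, -0.25 and -0.80 in p53-/- cells. Every treated array lay below both 0 h arrays, and the decline ran through all times in both genotypes. Without scaling the p53-/- value at 12 h lay 0.23 above its 0 h array on the log2 scale. TXNRD1 was 3.28-fold lower at 24 h and 3.99-fold lower at 48 h than on the array labelled p53+/+ 0 h (14.3% and 12.3% of genes were lower by at least 2-fold). Against the p53-/- 0 h array the same values were 2.40- and 2.92-fold (13.7% and 12.1% of genes). In p53-/- cells it was 2.38-fold lower at 48 h (7.51% of genes), a log2 change of -1.25 that was -0.81 without scaling and -0.80 with spike-in scaling, under 2-fold. At 12 h it had not reached 2-fold in either genotype.

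GCLC, GCLM, SLC7A11 and TXNRD1 were the 4 of 8 genes whose 6 treated arrays all lay below both 0 h arrays, as did 6.6% of all genes. No member had all 6 above both (8.33% of genes). GCLM, SLC7A11 and TXNRD1 were lower at each later time in both genotypes, as were 0.778% of all genes. Without scaling, GCLM at all 3 times and TXNRD1 at 12 h lay above 0 h in p53-/- cells (by 0.05 to 0.14 and by 0.23 on the log2 scale). GCLM and TXNRD1 then met neither this description nor that of 6 treated arrays below both 0 h arrays. Over the 8 arrays, Pearson's r was 0.906 between GCLM and SLC7A11, 0.910 between GCLM and TXNRD1 and 0.870 between SLC7A11 and TXNRD1. These coefficients are descriptive, since the points are 2 time courses that share a slide and each pair shares its arrays.

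NRF2 acts with small MAF proteins on the antioxidant response element, whose core is TGACNNNGC. RefSeq promoter windows of GRCh38.p14, from 250 bases before to 50 after a start site, were searched for that core on both strands. They matched 7 of the 9 genes by symbol, in 10 windows, and SLC7A11 and HMOX1 had none there. The core was found in 4 of the 10 windows and 3 of the 7 genes, and in 13.3% of all 35116 windows. It occurred in the windows of GCLM and TXNRD1 and in one of the KEAP1 windows. They are printed from 130 bases before to 30 bases after the start site, 5′ to 3′ on the gene's strand, with each match to the core or its reverse complement in capitals. TXNRD1 has 2 start sites in the table. The windows lie at chr1:93909401-93909560 (minus strand) for GCLM, chr12:104215649-104215808 and chr12:104286902-104287061 (plus strand) for TXNRD1, and chr19:10502742-10502901 (minus strand) for KEAP1.
GCLM: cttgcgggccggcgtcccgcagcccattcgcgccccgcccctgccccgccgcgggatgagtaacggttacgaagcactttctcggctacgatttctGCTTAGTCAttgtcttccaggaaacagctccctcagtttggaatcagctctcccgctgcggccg
TXNRD1, first start: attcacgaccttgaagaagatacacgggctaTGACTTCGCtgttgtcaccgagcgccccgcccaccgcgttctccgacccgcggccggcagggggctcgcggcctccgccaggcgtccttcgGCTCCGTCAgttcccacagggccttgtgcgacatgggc
TXNRD1, second start: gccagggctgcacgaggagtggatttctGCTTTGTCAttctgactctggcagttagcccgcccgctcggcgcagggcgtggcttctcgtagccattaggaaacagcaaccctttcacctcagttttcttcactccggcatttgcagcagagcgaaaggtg
KEAP1: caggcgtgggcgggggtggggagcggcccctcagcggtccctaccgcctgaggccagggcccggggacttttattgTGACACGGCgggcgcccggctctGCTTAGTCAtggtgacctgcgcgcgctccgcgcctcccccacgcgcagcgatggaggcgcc

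The GCLM match starts 34 bases before the start site, the TXNRD1 matches 99 and 8 bases before the first and 102 before the second, and the KEAP1 matches 54 and 31 before. GCLM and KEAP1 carry the same 9 letters, GCTTAGTCA. A match describes the letters and not an occupied site. The windows of NQO1, GCLC, SRXN1 and NFE2L2 held none, and bases outside the windows were not searched.

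SRXN1 encodes sulfiredoxin, which repairs over-oxidised peroxiredoxins. Its level (NM_080725, 2 spots) went from 3.61 on the array labelled p53+/+ 0 h to 3.20, 2.91 and 2.92, and from 2.93 to 3.13, 2.66 and 2.49 in p53-/- cells. No change reached 2-fold, the widest being 1.63-fold lower at 24 h in p53+/+ cells, but without scaling the p53+/+ log2 changes of -1.02 at 24 h and -1.31 at 48 h were past 2-fold, as was -1.22 at 24 h with spike-in scaling. Against the p53-/- 0 h array the p53+/+ changes at 24 and 48 h were -0.03 and -0.01 on the log2 scale, within the technical SD of 0.07.

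**Figure D2:**
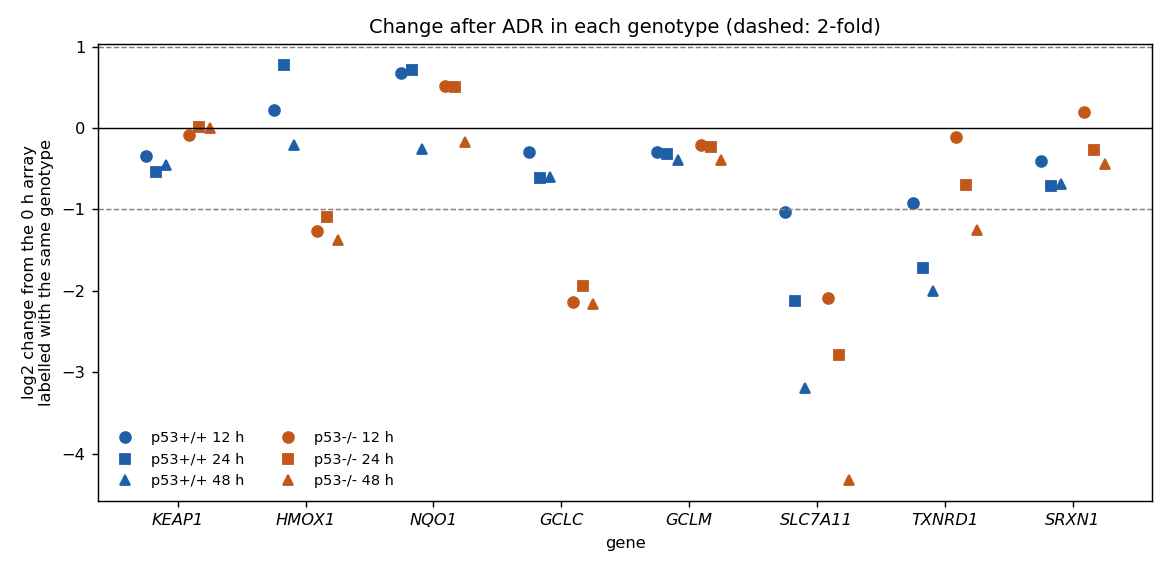
Log2 change from the 0 h array labelled with the same genotype (vertical axis) for the 8 detected genes at 12 h (circles), 24 h (squares) and 48 h (triangles), blue for p53+/+ and orange for p53-/-, with dashed lines at 2-fold. SLC7A11 lay below the lower line at every time in both genotypes, reaching -3.19 and -4.32 at 48 h, GCLC and HMOX1 did so in p53-/- cells (HMOX1 not without scaling), and no gene lay above the upper line.

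HMOX1, heme oxygenase 1, breaks heme down to biliverdin, iron and carbon monoxide. Its level (NM_002133, 10 spots) went from 1.09 on the array labelled p53+/+ 0 h to 1.31, 1.87 and 0.88 in p53+/+ cells. In p53-/- cells it went from 2.21 to 0.96, 1.12 and 0.83. As for GCLC, the p53-/- 0 h array was the highest of the 8. HMOX1 was 2.39-, 2.14- and 2.60-fold lower after ADR in p53-/- cells. Left unscaled, its log2 changes there were -0.91, -0.72 and -0.93, and scaled to the spike-in probes they were -0.92, -0.84 and -0.92, all under 2-fold. In p53+/+ cells it was 1.71-fold higher at 24 h than on the array labelled p53+/+ 0 h and 1.27-fold lower than on the p53-/- 0 h array, so its direction turned with the baseline. The interaction was 1.51 (SE 0.56, adjusted p = 0.241).

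NQO1, the quinone reductase that serves as a standard readout of NRF2, had a like profile in both genotypes at different heights. It went from 0.84 on the array labelled p53+/+ 0 h to 1.52, 1.55 and 0.58 (NM_000903, 2 spots), and from 0.34 to 0.86, 0.85 and 0.17 in p53-/- cells. Both genotypes were higher at 12 and 24 h than at 0 h and lowest at 48 h. The last of these depended on the scaling: unscaled or scaled to the spike-in probes, the p53-/- value at 48 h lay 0.28 above 0 h on the log2 scale. The mean log2 change over the 3 times in p53+/+ cells, 0.37, was -0.04 unscaled. The values at 12 and 24 h, 1.60- and 1.64-fold above 0 h in p53+/+ and 1.43- and 1.42-fold in p53-/- cells, stayed under 2-fold. Against the p53-/- 0 h array NQO1 was 2.25- and 2.31-fold higher at 12 and 24 h in p53+/+ cells, as were 13.7% and 15.6% of genes by at least 2-fold.

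No member was at least 2-fold higher at all 3 times in either genotype, beside 9.53% of genes in p53+/+ cells (9.55% when measured from the p53-/- 0 h array) and 3.21% in p53-/- cells. For 8 genes, none at such shares is no result about the pathway. HMOX1, GCLC and SLC7A11 were at least 2-fold lower at all 3 times in p53-/- cells, 3 of 8 against 2.04% of genes. Unscaled or scaled to the spike-in probes there were 2, as HMOX1 did not reach 2-fold. The GCLC and HMOX1 calls also rest on the p53-/- 0 h array, which read 3.00 and 2.21. The array labelled p53+/+ 0 h read 1.36 and 1.09. Treated p53-/- arrays, at 0.86, 1.05 and 0.84 for GCLC and 0.96, 1.12 and 0.83 for HMOX1, lay within 2-fold of that array. At 48 h the median log2 change of the 8 genes was -0.53 in p53+/+ and -0.85 in p53-/- cells, beside 0.16 and 0.07 over all 15811 genes. At 12 h it was -0.32 and -0.16. None of the 8 passed an adjusted p of 0.05 in the limma contrasts against 0 h, where 4.18% of probes were called higher and 2.81% lower in p53+/+ cells, and in p53-/- cells 0.00691% and 0.0484%. At an unadjusted p under 0.05 there were 3 in p53-/- cells, HMOX1, GCLC and SLC7A11, and TXNRD1 in p53+/+ cells.

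Setting treated p53+/+ against treated p53-/- arrays asks whether the pathway differed with p53 after damage, free of either 0 h array. With the scaling used here no member differed by 2-fold at any time in either direction, whereas 6.75% of genes were at least 2-fold higher and 5.92% at least 2-fold lower at all 3 times. At 12, 24 and 48 h alone, 12.8%, 13.1% and 16% of genes were higher and 9.7%, 14% and 15.5% lower by that much. Without scaling KEAP1 was lower in p53+/+ cells by more than 2-fold at 24 h (-1.15) and 48 h (-1.43), and so was TXNRD1 (-1.04 and -1.15). With spike-in scaling the 24 h values were -1.36 and -1.24. Only KEAP1 had 3 treated p53+/+ arrays that did not overlap the 3 treated p53-/- arrays, all lower, as did 19.9% of genes (24.6% had all 3 higher). A share of that size makes the separation of KEAP1 no result about the pathway.

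KEAP1 (NM_203500, 10 spots) went from 1.68 on the array labelled p53+/+ 0 h to 1.34, 1.14 and 1.22 in p53+/+ cells. In p53-/- cells it held between 1.71 and 1.81, with 1.79 at 0 h. Without scaling its log2 changes from 0 h there were 0.26, 0.39 and 0.45. The p53+/+ change was -1.08 at 48 h without scaling and -1.05 at 24 h with spike-in scaling, both past 2-fold. Treated p53+/+ cells were 1.29-, 1.59- and 1.49-fold below treated p53-/- cells (technical SD 0.03 on the log2 scale). In limma over the 6 treated arrays the log2 difference was -0.54 (SE 0.17, adjusted p = 0.0718), and KEAP1 was the 1 member under 0.05 before adjustment. It was negative under every one of 13 alternatives, from -1.18 to -0.47, with adjusted p from 0.00852 to 0.389.

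**Figure D3:**
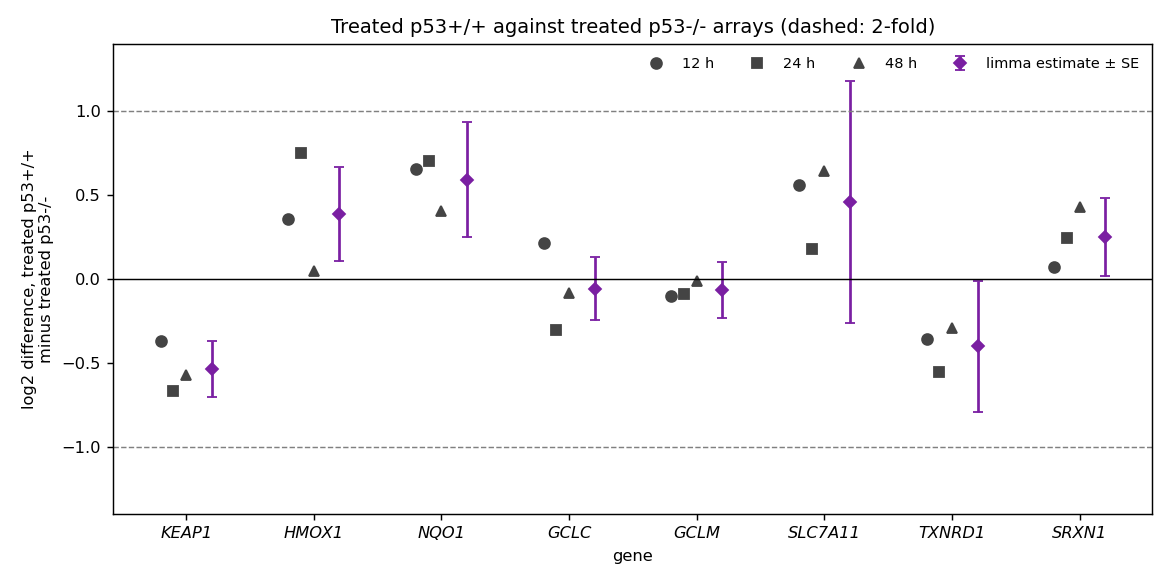
Log2 difference, treated p53+/+ minus treated p53-/- (vertical axis), for the 8 detected genes at 12 h (circles), 24 h (squares) and 48 h (triangles), with the limma estimate over the 3 times and its SE in purple and dashed lines at 2-fold. All points lie within 2-fold with this scaling, though KEAP1 and TXNRD1 do not at 24 and 48 h without it. KEAP1 is below 0 at each time. The limma estimates of HMOX1, NQO1, SLC7A11 and SRXN1, above 0 here, move below 0 without scaling. At single times NQO1 at 12 and 24 h, HMOX1 at 24 h and SLC7A11 at 12 h stay above 0 without it.

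NQO1 was 1.58-, 1.63- and 1.33-fold higher in treated p53+/+ cells, with a limma difference of 0.59 (SE 0.34, adjusted p = 0.275). With time as a block, which removes the profile common to both genotypes, the SE was 0.18 and the adjusted p 0.0967. SLC7A11 was 1.47-, 1.13- and 1.56-fold higher in treated p53+/+ cells, at 0.46 (SE 0.72, adjusted p = 0.704, and SE 0.20, adjusted p = 0.176 with the block). TXNRD1 was lower at all 3 times, at -0.40 (SE 0.39, adjusted p = 0.520). HMOX1 at 0.39, SRXN1 at 0.25, GCLM at -0.07 and GCLC at -0.06 had adjusted p from 0.382 to 0.862. These adjusted p-values do not show that the genotypes are alike. The signs for HMOX1, NQO1, SLC7A11 and SRXN1 were also those of the scaling, as they turned to -0.21, -0.0085, -0.14 and -0.35 without it.

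Around these 9 genes, 79 others of the pathway and of neighbouring processes were followed in 7 lists, of which 78 had a named probe and 75 were well above background on at least 1 array. In treated cells 6 of the 75 were at least 2-fold higher and 4 at least 2-fold lower in p53+/+ at all 3 times, beside the 6.75% and 5.92% of all genes. In limma 13 were higher and 7 lower, each gene by 1 probe, beside 10.6% and 7.4% of all probes, which is another unit. Fitted by gene, on the mean of all its probes, 3595 of 15855 were called in either direction. With shares so near, these counts are no result about the lists. The median over the lists was 0.17, beside 0.05 over all genes. Genes of NRF2 control (12 measured) and the thioredoxin system (10) had no member past 2-fold at all 3 times, nor did NADPH supply (6). In limma each of these lists had 1 gene higher in treated p53+/+ cells, named after their values were seen. They were GSK3B, a kinase that marks NRF2 for degradation (1.19, adjusted p = 0.0379), PRDX6, a peroxiredoxin (0.88, adjusted p = 0.0156), and TKT, a transketolase (1.15, adjusted p = 0.0273). Without scaling all such differences move down, the median over all genes from 0.05 to -0.55. These higher values would then be smaller, and whether the calls hold is not given here.

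**Figure D4:**
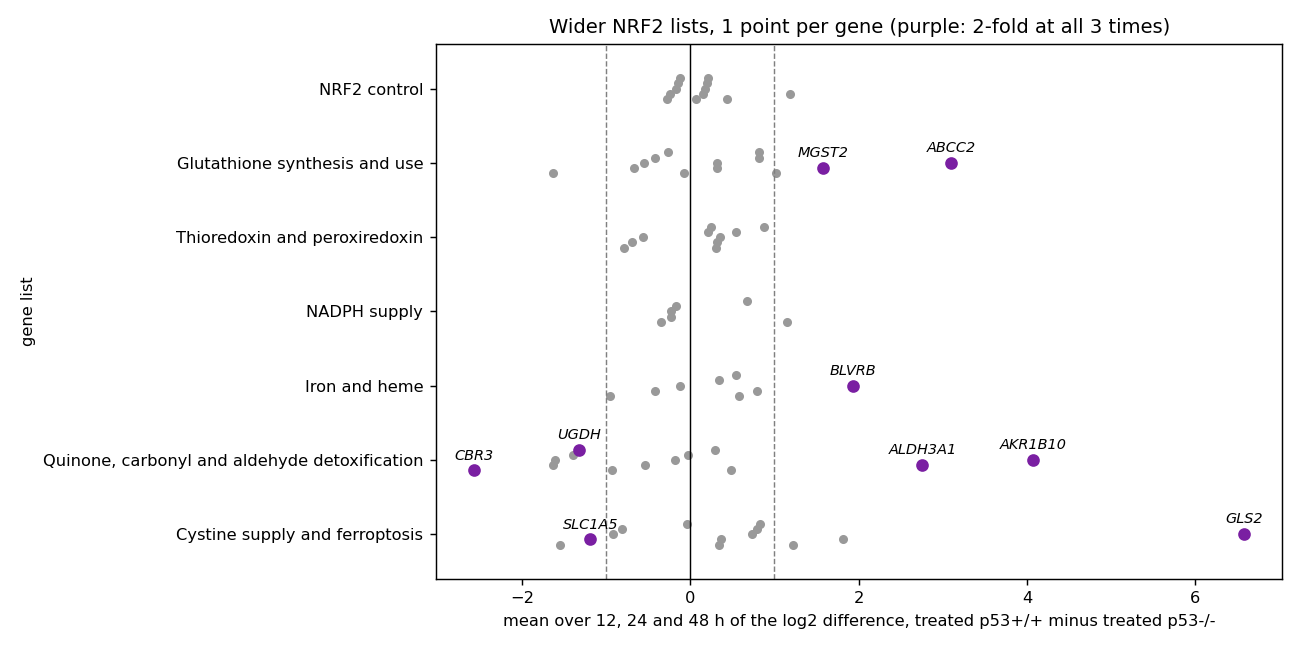
Mean over 12, 24 and 48 h of the log2 difference, treated p53+/+ minus treated p53-/- (horizontal axis), 1 point per gene, in 7 lists of NRF2 pathway and neighbouring genes (vertical axis). Purple, labelled points were at least 2-fold different at all 3 times by the rule for named genes, from CBR3 at -2.57 to GLS2 at 6.58, and dashed lines mark 2-fold.

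In the list of glutathione synthesis and use (13 of 14 measured), ABCC2, which exports glutathione conjugates, read 1.79, 3.13 and 2.74 in treated p53+/+ and -0.49, -0.25 and -0.90 in treated p53-/- cells. The groups were far apart, with a limma difference of 3.10 (SE 0.38, adjusted p = 0.00383). ABCC2 and the other genes labelled in the figure were picked by their difference on these same treated arrays. Here and below, their limma p-values therefore follow in part from that choice and are no separate support. MGST2, a microsomal glutathione transferase, was higher by 1.57 (SE 0.20, adjusted p = 0.00477). Over 13 alternatives its difference ran from 0.97, under 2-fold, to 1.71. GSS, the second enzyme of glutathione synthesis, was higher by 0.82 (adjusted p = 0.0448) and GSTP1, a cytosolic transferase, by 1.02 (adjusted p = 0.0185). GGT1 was higher by 0.82 (adjusted p = 0.0274). GSTA4, also a glutathione transferase, was lower (-1.63, adjusted p = 0.0159). GSS, GSTP1, GGT1 and GSTA4 are named after their values were seen. The limit of scaling given for GSK3B holds for those that were higher.

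Among 13 measured genes of quinone, carbonyl and aldehyde detoxification, the changes ran both ways. AKR1B10, an aldo-keto reductase, read 3.36, 5.21 and 4.08 in treated p53+/+ cells against -0.33, 0.74 and 0.02 in treated p53-/- cells (4.07, SE 0.51, adjusted p = 0.00419). ALDH3A1, an aldehyde dehydrogenase, was higher by 2.76 (SE 0.53, adjusted p = 0.0174). CBR3, a carbonyl reductase, read -0.21, -0.93 and -2.25 against 1.15, 1.73 and 1.43 (-2.57, SE 0.51, adjusted p = 0.0186). UGDH, which makes the UDP-glucuronate used in conjugation, was lower (-1.32, SE 0.28, adjusted p = 0.0231).

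NQO2, the paralog of NQO1, was also lower at all 3 times (-1.39, SE 0.29, adjusted p = 0.0211), and is named after its value was seen. PTGR1, named likewise, was lower too (-1.63, adjusted p = 0.0237). NQO2 read -0.41, -0.81 and -1.32 in treated p53+/+ and 0.63, 0.77 and 0.23 in treated p53-/- cells, whereas NQO1 differed by less than 2-fold. AKR1B10 and the AKR1C genes have close paralogs, and whether their probes read more than one of them was not tested.

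In the list of iron and heme (8 of 9 measured), BLVRB, a biliverdin reductase acting after heme oxygenase, read 4.81, 5.83 and 5.37 in treated p53+/+ and 2.97, 3.74 and 3.51 in treated p53-/- cells (1.93, SE 0.33, adjusted p = 0.0118). FTH1 and FTL, the ferritin chains, differed by 0.34 and -0.42 (adjusted p = 0.316 and 0.370).

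Among 13 measured genes of cystine supply and ferroptosis, GLS2, a mitochondrial glutaminase known as a p53 target, stood farthest out. It read 2.15, 2.90 and 2.18 in treated p53+/+ and -4.47, -4.02 and -4.01 in treated p53-/- cells (6.58, SE 0.27, adjusted p = 0.000124). GLS2 was not well above background on either 0 h array, and was at least 189.9-fold higher in treated p53+/+ than on the array labelled p53+/+ 0 h and at least 2.11-fold higher in treated than in untreated p53-/- cells. SLC1A5, a glutamine carrier, was lower in treated p53+/+ cells (-1.19, SE 0.25, adjusted p = 0.0211). Named after their values were seen, LPCAT3 was higher (0.83, adjusted p = 0.0355) and ACSL4 lower (-0.81, adjusted p = 0.0428). The limit of scaling given for GSK3B holds for LPCAT3. SLC3A2, the partner of SLC7A11 in the antiporter, did not follow it. It went from 2.91 on the array labelled p53+/+ 0 h to 2.57, 2.24 and 2.38, and read 2.27, 2.65, 2.16 and 2.49 over the p53-/- arrays.

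ADR itself moved 8 of the 75 genes at least 2-fold up and 5 down at all 3 times from the array labelled p53+/+ 0 h, beside 9.53% and 6.39% of all genes, and 2 up and 2 down in p53-/- cells, beside 3.21% and 2.04%. With shares so near those of all genes, these counts are no result about the lists. Named after their values were seen, the 5 that were lower in p53+/+ cells were ACSL4, GSTA4, AKR1C1, CBR3 and UGDH, and in p53-/- cells GCH1 and GLS2 were higher and CBS and AKR1C3 lower. AKR1C1 went from 6.12 to 4.36, 4.26 and 2.28 in p53+/+ and from 6.60 to 5.93, 5.18 and 4.62 in p53-/- cells. AKR1C3 went from 5.34 to 4.74, 4.24 and 3.08 and from 5.86 to 4.80, 4.69 and 4.20, so that both, like SLC7A11, were lower at each later time in each genotype.

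The genes whose level over the 8 arrays was most like that of a member were taken from 11827 genes above background on all arrays, by Pearson's r, as a description. For SLC7A11 they were LTBP1 (0.982), ZNF638 (0.978) and FKBP7 (0.976). LTBP1 went from 0.99 to 0.47, -0.72 and -1.41 in p53+/+ and from 1.41 to 0.29, -0.51 and -1.49 in p53-/- cells. For HMOX1 they were ARRDC2 (0.942), MEGF9 (0.936) and EBLN2 (0.912), and ARRDC2 shared both the high p53-/- 0 h value, 1.74, and the p53+/+ peak at 24 h, 1.81. For NQO1 they were SPCS3 (0.963), CEPT1 (0.954) and C2CD3 (0.949). No member was among the 3 genes most like SLC7A11, HMOX1 or NQO1.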

How the data were processed

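The authors deposited, for each array, the output of Agilent Feature Extraction 10.7.3.1 (version from the submitters' processing notes), in which the processed signal is an intensity on a linear scale after the software's background correction. A deposited table of the series held the same intensity values (503808 of 503808 equal), so its use as an alternative changes nothing. The methods name no normalization between arrays. Here the log2 of the deposited signal minus the log2 of each array's 75th percentile was averaged over each probe's spots, after control and outlier spots were left out (14 of 42405 probes lost). A probe was well above background when most of its spots were. Accessions matched 27227 probes (64.2%) to 20296 genes of GRCh38.p14, and each gene took its probe with the highest mean.

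A call was a difference of at least 2-fold. The 28947 probes that were well above background on 1 or more arrays entered limma (lmFit, then eBayes; 4 residual degrees of freedom, Benjamini-Hochberg adjusted p of 0.05) for genotype over the 6 treated arrays and for the interaction over 8, with times standing in for replicates, so p-values describe differences against movement over time. No condition had a second culture or array. For a probe below background on one side, a fold is a lower bound against the dimmest probe above background there. The fits were also run on simulated data with independent noise and no movement over time. Such data cannot tell how the p-values behave where times stand in for replicates. Some further checks are not reported here.

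The members, lists and tests were chosen with earlier results of these data known. The rule for naming genes outside the members took wider-list genes at least 2-fold different between treated genotypes at all 3 times. These had to be above background in the higher genotype, at most 4 a list. It also took the 3 genes most like SLC7A11, HMOX1 and NQO1. Other wider-list genes, FTH1, FTL and SLC3A2 among them, were named outside this rule. Alternatives were quantile, median, spike-in and no scaling, normexp (offset 50) on the median spot signal, all probes of a gene, a signal floor, other filters and fold rules, time as a block, each time left out and the other 0 h array. The tools were limma 3.58.1 in R 4.3.3, and Python 3.11.15 with numpy 2.4.6, pandas 2.3.3 and matplotlib 3.10.9.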

Additional observations from a re-analysis of the deposited data

Results flagged for a closer look

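The interaction of genotype and ADR fitted for GLS2 was 5.59 on the log2 scale. It rests on 0 h values of -5.45 and -6.44 that were not well above background, so it is no measured difference, and the data give only bounds: GLS2 was at least 189.9-fold higher after ADR in p53+/+ and at least 2.11-fold higher in p53-/- cells. ABCC2, MGST2 and SLC1A5 moved in opposite directions on all 3 treated arrays of each genotype. The mean log2 change from the 0 h array labelled with the same genotype, p53+/+ minus p53-/-, was 3.75 for ABCC2, 1.85 for MGST2 and -1.67 for SLC1A5. The difference counts as not tested by this criterion, and the limma interaction for these genes had adjusted p of 0.0688, 0.0850 and 0.153. All of these values rest on the array labelled p53+/+ 0 h, on which p53 target genes read within the range of the p53-/- arrays.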

How the results depend on the processing

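The number of members at least 2-fold lower at all 3 times in p53+/+ cells, 1 as reported, was 0 with quantile normalization, normexp or a 3-fold rule, and 2 with median scaling, no scaling, at least 2 of 3 times or the baseline taken from the p53-/- 0 h array. The number of members past an adjusted p of 0.05 between treated genotypes, 0 as reported, was 1 with median scaling, spike-in scaling, normexp, only probes above background on all arrays or no filter on dim probes, and 2 without scaling. KEAP1 was called in each of these, with adjusted p of 0.0448, 0.0225, 0.0138, 0.0410, 0.0407 and 0.00852, and GCLM only without scaling (-0.67, adjusted p = 0.0383). For the interaction the count of 0 became 1 with normexp (GCLC). The wider-list genes lower in treated p53+/+ cells, 4 as reported, were 11 without scaling, 0 by a 3-fold rule and 9 by at least 2 of 3 times. The members lower at all 3 times in p53-/- cells, 3 as reported, were 2 without scaling, with spike-in scaling or by a 3-fold rule. In 77 combinations of a count and an alternative, these included, the count was equal to the reported one or within 1.5 times of it.

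Signs between treated genotypes turned without scaling for HMOX1 (-0.21), NQO1 (-0.0085), SLC7A11 (-0.14) and SRXN1 (-0.35), with spike-in scaling for HMOX1 (-0.029) and SRXN1 (-0.36), and without the 24 h arrays for GCLC (0.063). The NQO1 interaction turned with median scaling (-0.062), no scaling (-0.71) and spike-in scaling (-0.33). The cause was not tested. Spike-in scaling left out the p53+/+ 48 h array, on which 0 spike-in probes were usable against 6 on the others. Each member had 1 probe, so the mean of all probes changed none of their values.

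Leaving out the 24 h arrays took the calls between treated genotypes from 5201 to 292 of 28947 probes and left short of the threshold ABCC2 (adjusted p = 0.0706), ALDH3A1 (0.0913), BLVRB (0.111), CBR3 (0.188), MGST2 (0.120), SLC1A5 (0.192) and UGDH (0.203). Without 12 h, ALDH3A1 (0.0944) and UGDH (0.0505) were lost, and without 48 h, BLVRB (0.0730), SLC1A5 (0.0924) and UGDH (0.0720). For the interaction, limma called 488 probes, but 42 without the 12 h arrays, 60 with time as a block, and 0 without the 24 or 48 h arrays (3063 and 5274 at an unadjusted p under 0.05).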
